A study of Drosophila melanogaster with 12 samples.

Results

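The yolk protein genes Yp1, Yp2 and Yp3 were followed through 12 RNA-seq libraries of Drosophila melanogaster heads, 3 genes chosen by name out of 17737 counted, all 3 of which passed the filter on low counts with 11223 genes in all. In female heads the loss of Nab2, a zinc finger protein that binds polyadenosine RNA, went with higher RNA of all 3 genes: 4.39-fold for Yp2, 7.89-fold for Yp1 and 17.7-fold for Yp3. In wild-type male heads the 3 genes were 18-fold to 134-fold lower than in wild-type females, and none of them passed the edgeR test for a change in null males. The balance between the genes also differed: Yp1 and Yp2 led in wild-type females, Yp3 and Yp1 in null females, and Yp3 in males.

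Each library came from 60 pooled heads of newly eclosed adults. The 4 groups of 3 libraries were females and males with the genotype Nab2ex3, labelled Nab2 null, and females and males with the genotype Nab2pex41, labelled wild type; the labels do not give zygosity. No other allele, transgene or treatment is named for any group. The labels do not say whether the replicate pools came from separate cultures, so the p-values measure the spread between these pools. Libraries held 23648813 to 30751922 counts assigned to genes. Nab2 had 1362 to 1946 counts in wild-type libraries and 11 to 82 in null libraries. The male dosage compensation RNA roX1 was at 1700 to 2170 CPM (counts put on a common scale through TMM library factors) in males. In females it was at 1.66 to 8.21 CPM in 5 libraries and at 22.6 in wild-type female library 3, which is 1.16% of the male mean. Null female library 1 stood apart, with correlations across genes of 0.984 to 0.986 with its replicates against 0.990 to 0.995 for the other replicate pairs.

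Yolk proteins are the main nutrient store of the fly egg. They are made by the female fat body and by the follicle cells of the ovary, secreted, and taken up into the oocyte by the receptor Yolkless. Their sequence is related to lipases, although they are not known to act as enzymes. Transcription is female-biased because the sex-specific products of doublesex act on enhancers of these genes, the female product activating and the male product repressing them, and ecdysone and juvenile hormone raise their output in adult females. Fat body tissue lies around the brain inside the head capsule, so yolk protein RNA in a head can come from there. In pooled tissue, fewer cells of a type and less RNA per cell cannot be told apart.

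All 3 genes lie on the X chromosome. In the Ensembl annotation of BDGP6, the build that the submitters' processing notes name, Yp1 (FBgn0004045) spans X:10053811-10055498 on the plus strand with 2 exons and 1611 exonic bases. Yp2 (FBgn0005391) spans X:10050951-10052636 on the minus strand with 2 exons and 1618 exonic bases. The starts of Yp1 and Yp2 face each other across 1174 bases, so this pair is divergently transcribed from a shared interval. Yp3 (FBgn0004047) lies apart from them at X:13759546-13761547 on the plus strand, with 3 exons and 1868 exonic bases. An antisense RNA gene, CR45601 (X:10054235-10055109, minus strand), lies wholly within Yp1.

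In female heads the 3 genes were abundant transcripts, and in male heads they were scarce. Yp1 was at 1020, 722 and 614 CPM in the wild-type female libraries 1 to 3 and at 8360, 4560 and 5680 CPM in the null female libraries. In males it was at 1.03, 9.33 and 7.09 CPM in wild type and at 1.10, 2.06 and 2.57 CPM in the null. Every null female library lay above every wild-type female library, every female library lay far above every male one, and the male groups overlapped because wild-type male library 1 was as low as the null males.

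Yp2, the divergent neighbour of Yp1, was at 944, 760 and 772 CPM in wild-type females and at 4640, 2710 and 3520 CPM in null females. The male values were 4.30, 11.8 and 15.6 CPM in wild type and 3.45, 6.03 and 7.33 CPM in the null. The groups fell in the same order as for Yp1, with no overlap between the female groups or between the sexes, and with wild-type male library 1 again the one that lay among the null males.

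Yp3 was at 772, 334 and 243 CPM in wild-type females and at 12400, 5330 and 6220 CPM in null females. In males it was at 18.9, 29.7 and 26.2 CPM in wild type and at 34.1, 35.4 and 28.0 CPM in the null. The female groups did not overlap. The male groups did, with null male libraries 1 and 2 above all wild-type males, which is the opposite tendency to Yp1 and Yp2.

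**Figure D1:**
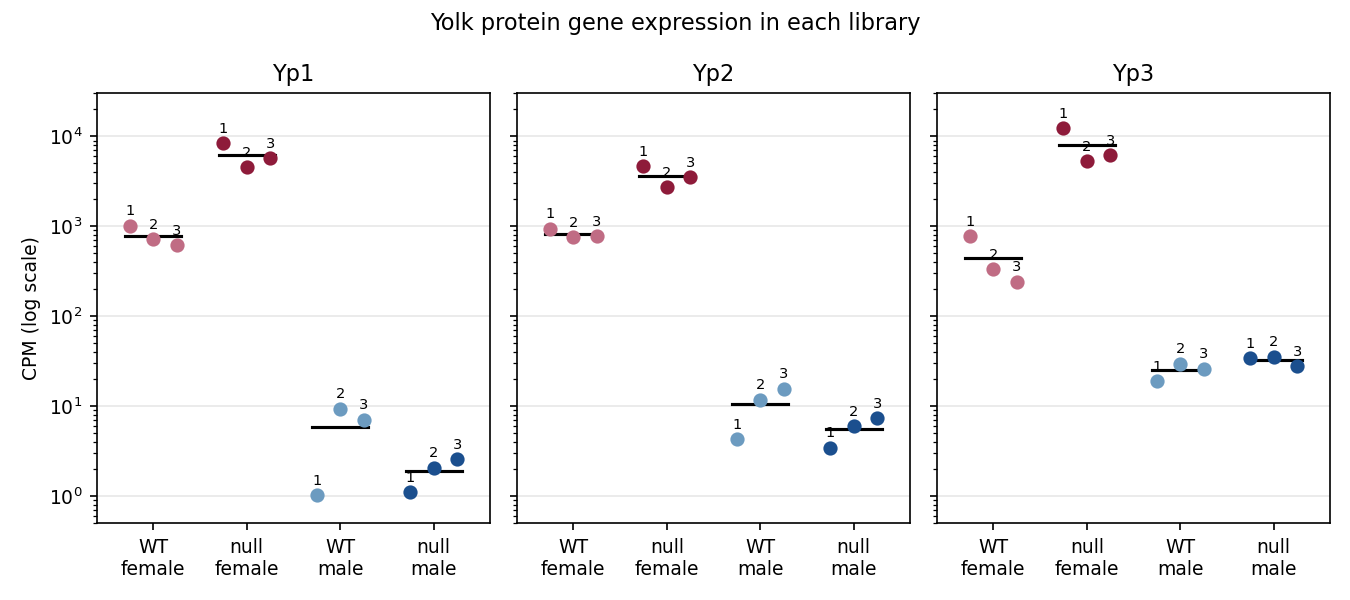
CPM of Yp1, Yp2 and Yp3 (log scale) in each of the 12 libraries, with numbers giving the replicate and black lines the group mean (n = 3). Null females sit above wild-type females without overlap for each gene, and both male groups sit far below at 1.03 to 35.4 CPM.

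Together the 3 genes took 0.279%, 0.181% and 0.164% of all counts in the wild-type female libraries and 2.2%, 1.22% and 1.49% in the null female libraries. In males the summed share was 0.00257% to 0.00535% in wild type and 0.00387% to 0.00444% in the null. The count of Yp1 behind these values was 14611 to 29623 in wild-type females, 118393 to 187443 in null females, 28 to 302 in wild-type males and 28 to 62 in null males. Counting error is therefore small in females, and it is appreciable for Yp1 in males.

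Null females were set against wild-type females to ask how yolk protein RNA differs when Nab2 is absent. Yp3 had the highest fitted change of the 3 genes, from 449 ± 283 CPM (SD, n = 3) in wild type to 7970 ± 3840 CPM (SD, n = 3) in the null, a log2 change of 4.15 (SE 0.45, edgeR adjusted p 1.07e-04). Yp1 rose from 785 ± 210 CPM (SD, n = 3) to 6200 ± 1950 CPM (SD, n = 3), a log2 change of 2.98 (SE 0.50, edgeR adjusted p 0.00153). Yp2 rose from 825 ± 103 CPM (SD, n = 3) to 3620 ± 972 CPM (SD, n = 3), a log2 change of 2.13 (SE 0.36, edgeR adjusted p 0.00168). All 3 members were thus called, in a comparison where 31.8% of the 11223 genes tested were called and 18.2% were called higher. By size of fitted increase Yp3 ranked 22, Yp1 ranked 56 and Yp2 ranked 125 among those genes, and the median log2 change of all genes was 0.01. Wild-type female library 1 had the highest level of each gene in its group, and without it the Yp3 change was 4.79.

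Male heads gave smaller values, none of which passed the threshold. Yp1 was at 5.81 ± 4.29 CPM (SD, n = 3) in wild type and 1.91 ± 0.748 CPM (SD, n = 3) in the null, a log2 change of -1.62 (SE 0.60, edgeR adjusted p 0.117). For Yp2 the levels were 10.5 ± 5.73 and 5.61 ± 1.98 CPM (SD, n = 3 each), a log2 change of -0.92 (SE 0.40, edgeR adjusted p 0.181). For Yp3 they were 24.9 ± 5.52 and 32.5 ± 3.96 CPM (SD, n = 3 each), a log2 change of 0.38 (SE 0.41, edgeR adjusted p 0.652). Thus 0 of the 3 members were called by edgeR where 9.93% of all genes were (4.89% higher and 5.03% lower), and 2 of them, Yp1 (p 0.0198) and Yp2 (p 0.0397), had an unadjusted edgeR p under 0.05, as 24.1% of all genes had. DESeq2 called Yp1 alone (-1.60, adjusted p 0.0386), with 10.8% of the genes it tested called. The male values moved in both directions when single libraries were left out. Without wild-type male library 1 the edgeR changes were -2.11 for Yp1 (adjusted p 0.00735) and -1.29 for Yp2 (adjusted p 0.0272). Without wild-type male library 2 the edgeR change of Yp1 was -1.10 (adjusted p 0.365), and without wild-type male library 3 that of Yp2 was -0.53 (adjusted p 0.541).

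The design also allows the female effect to be compared with the male effect directly. The null effect was larger in females than in males by 4.60 on the log2 scale for Yp1 (SE 0.77), by 3.05 for Yp2 (SE 0.54) and by 3.77 for Yp3 (SE 0.58), or 24.3-fold, 8.29-fold and 13.6-fold. The unadjusted edgeR p was 6.70e-05 for Yp1, 1.02e-04 for Yp2 and 3.25e-05 for Yp3, which placed them at ranks 3, 6 and 2 by p among 11223 genes. After adjustment over all genes, the edgeR adjusted p was 0.184, 0.184 and 0.182, so none of the 3 was called in a contrast where 1 gene (0.00891%) was called and 11.6% had an unadjusted p under 0.05. DESeq2 called all 3, with adjusted p of 1.78e-05, 4.72e-04 and 1.38e-04, among 28 genes it called (0.240% of those it tested). With edgeR, Yp1 and Yp2 passed when wild-type male library 1 was left out (5.09, adjusted p 0.00267, and 3.42, adjusted p 0.0116), and Yp3 passed when wild-type female library 1 was left out (4.41, adjusted p 0.0137). The difference was positive for each gene under every alternative, with an adjusted p from 1.78e-05 to 0.472 for Yp1, from 0.000472 to 0.523 for Yp2 and from 0.000138 to 0.438 for Yp3.

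**Figure D2:**
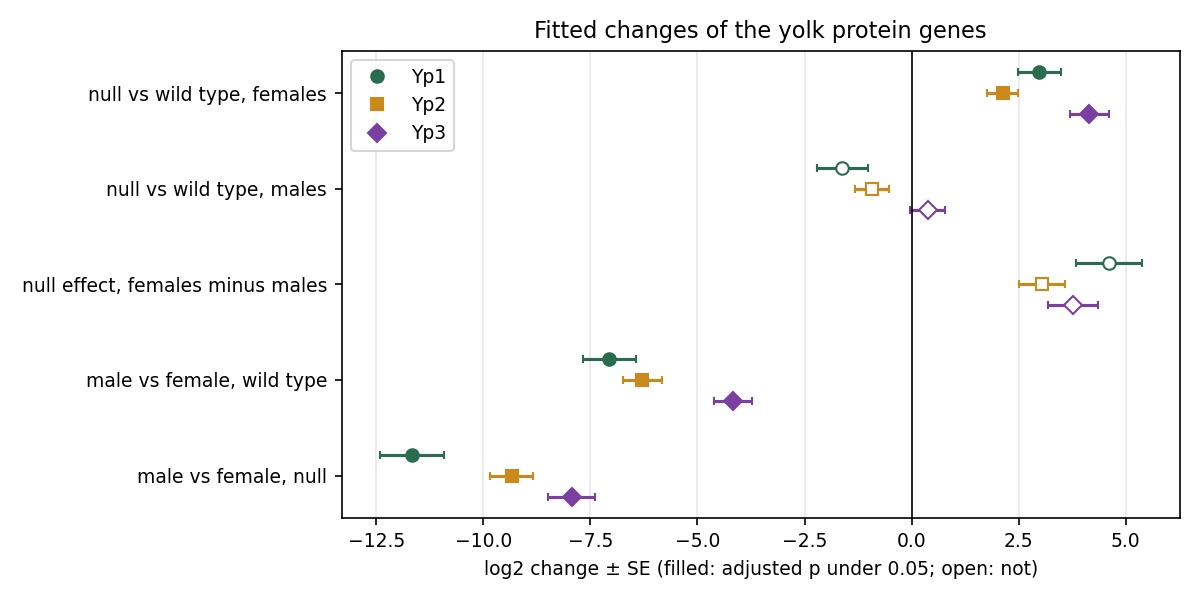
Fitted log2 changes with SE of Yp1, Yp2 and Yp3 in the 5 contrasts, from 1 edgeR model of all 12 libraries (3 per group), with filled symbols for an adjusted p under 0.05. The 3 genes are at 2.13 to 4.15 in females and at -1.62 to 0.38 in males for null against wild type, and at -4.17 to -11.67 for males against females.

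Males against females gave the widest differences. In wild type, Yp1 was 134-fold lower in males (log2 -7.06, SE 0.62, edgeR adjusted p 1.20e-04), Yp2 was 78-fold lower (-6.29, SE 0.45, edgeR adjusted p 3.07e-05) and Yp3 was 18-fold lower (-4.17, SE 0.45, edgeR adjusted p 5.37e-04). In this contrast 3.37% of all genes were called and 2.07% were called lower in males, and Yp1 had the lowest fitted value of all genes. Without wild-type female library 1 the Yp3 value was -3.53.

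In the null the distance between the sexes was wider for each gene. Yp1 was 3250-fold lower in males (-11.67, SE 0.75, edgeR adjusted p 7.43e-06), Yp2 was 647-fold lower (-9.34, SE 0.51, edgeR adjusted p 2.33e-06) and Yp3 was 245-fold lower (-7.94, SE 0.54, edgeR adjusted p 8.76e-06). Here 29.1% of all genes were called and 16.0% were called lower in males, and Yp1 and Yp2 held the lowest and next lowest fitted values. The widening is the same quantity as the difference between the null effects above, with the same test.

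Expressed against the mean of females of the same genotype, Yp1 in the wild-type male libraries was at 0.131%, 1.19% and 0.902%, Yp2 at 0.520%, 1.43% and 1.88%, and Yp3 at 4.20%, 6.60% and 5.83%. In null males Yp1 was at 0.0177% to 0.0414% and Yp2 at 0.0952% to 0.202%. Yp3 was at 0.351% to 0.444%. The male share was therefore lowest for Yp1 and highest for Yp3 in all 6 male libraries. In the opposite direction, roX1 in females was at 0.0852% to 1.16% of the male mean.

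Ratios between the genes within a library do not depend on how libraries are scaled, and were taken per kb of exon. These lengths join all transcripts of a gene, and the transcripts of Yp3 have 1488 and 1868 exonic bases. How reads were counted where CR45601 overlaps Yp1 is not known. The order of the genes by level per kb depends on both. In wild-type females Yp1 and Yp2 were at like levels, with Yp1 over Yp2 at 1.08, 0.954 and 0.799, while Yp3 was lower than both (Yp3 over Yp2 0.708, 0.381 and 0.272). In null females Yp1 exceeded Yp2 in each library (1.81, 1.69 and 1.62) and so did Yp3 (2.31, 1.71 and 1.53), with Yp3 and Yp1 close to each other (1.28, 1.01 and 0.944). The order in females thus went from Yp3 as the lowest of the 3 genes in each wild-type library to Yp2 as the lowest in each null library.

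In males the order was another one. Yp3 led in all 6 libraries, with Yp3 over Yp1 at 15.8, 2.74 and 3.19 in wild type and at 26.8, 14.8 and 9.40 in the null. Yp1 was the lowest, with Yp1 over Yp2 at 0.240, 0.796 and 0.458 in wild type and at 0.320, 0.344 and 0.352 in the null. Yp2 lay between them in every male library.

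The 6 female and 6 male libraries were compared for each of the 3 ratios. Each set of 6 held 3 libraries of each genotype. The permutation did not keep the genotypes apart, and the SD includes the difference between them. The log2 ratio of Yp1 over Yp2 was 0.34 ± 0.49 in females and -1.35 ± 0.58 in males (SD, n = 6 each). It was higher in females by 1.69 (2-sided exact permutation p 0.00216, the smallest this design allows, adjusted p 0.00325 over 3 ratios). The sexes did not overlap but nearly met in wild type, with a lowest female value of -0.32 and a highest male value of -0.33. For Yp3 over Yp1 the log2 ratio was -0.54 ± 0.77 and 3.14 ± 1.31 (SD, n = 6 each), a difference of -3.67 (exact permutation p 0.00216, adjusted 0.00325), with no overlap. For Yp3 over Yp2 the difference was -1.98 (exact permutation p 0.0152, adjusted 0.0152), and here the sexes overlapped. Within females the null raised the mean log2 ratio by 0.86 for Yp1 over Yp2, by 2.12 for Yp3 over Yp2 and by 1.26 for Yp3 over Yp1, each without overlap, where 3 against 3 libraries cannot give an exact p below 0.1. In males these genotype differences were -0.39, 1.19 and 1.57, with exact permutation p of 0.7, 0.2 and 0.3.

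**Figure D3:**
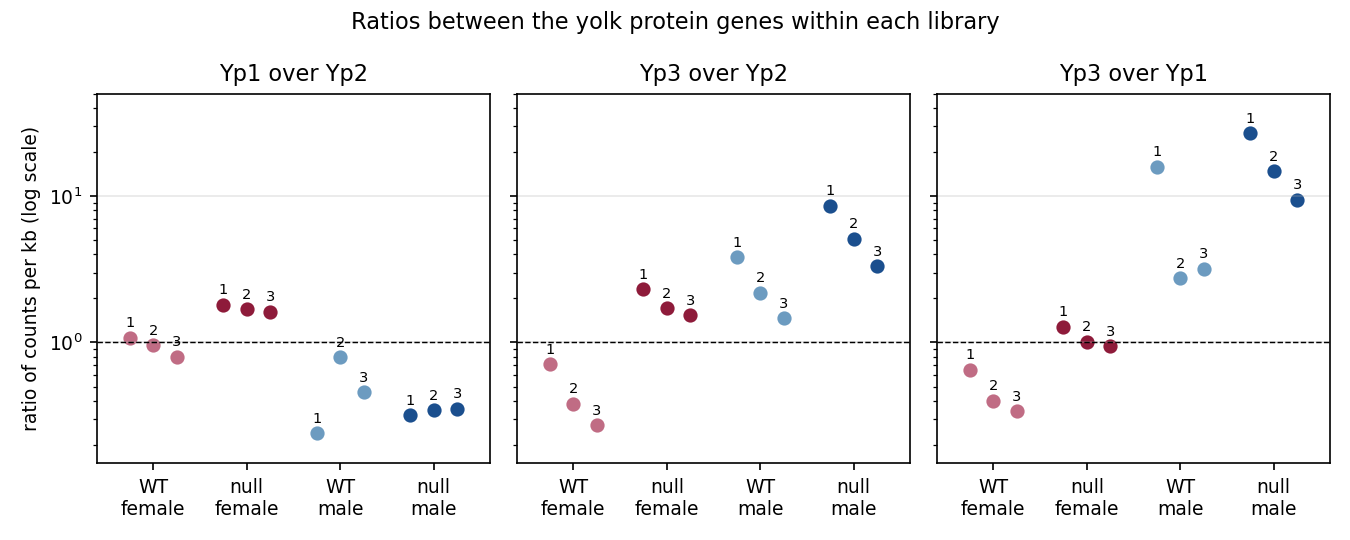
Ratios of counts per kb between pairs of yolk protein genes (log scale) in each library, with numbers giving the replicate and the dashed line equality. Yp3 over Yp1 runs from 0.340 to 1.28 in females and from 2.74 to 26.8 in males.

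Mean levels per kb give the same picture on 1 scale. Wild-type females held 487 ± 130 CPM per kb of Yp1, 510 ± 63.7 of Yp2 and 241 ± 151 of Yp3 (SD, n = 3 each). Null females held 3850 ± 1210, 2240 ± 600 and 4270 ± 2050 CPM per kb of these genes (SD, n = 3 each). Across libraries the values of neighbouring genes in each order overlapped in both female groups, so the order rests on the ratios within libraries. In males the levels were 3.61 ± 2.67, 6.51 ± 3.54 and 13.3 ± 2.95 CPM per kb in wild type and 1.19 ± 0.464, 3.46 ± 1.22 and 17.4 ± 2.12 CPM per kb in the null (SD, n = 3 each).

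The yolk protein genes varied more between replicate pools than most genes did. The biological coefficient of variation estimated by edgeR was 46.2% for Yp1, 32% for Yp2 and 33.6% for Yp3, against a median of 11.4% over all genes. The spread was not placed alike. Yp3 varied most in females, with a coefficient of variation of CPM of 62.9% in wild type and 48.1% in the null, against 22.1% and 12.2% in males. Yp1 varied most in wild-type males, at 73.9%, and Yp2 varied least of the 3 genes in wild-type females, at 12.5%. In each female group library 1 had the highest level of all 3 genes.

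Over the 12 libraries the genes of most like pattern were named by a fixed measure, as a description with libraries that share sex and genotype. Yp1 and Yp2 were each other's nearest gene, with a Pearson correlation of log2 CPM of 0.998. Yp3 correlated with Yp1 at 0.951 and with Yp2 at 0.946, and its nearest gene was Obp99a, an odorant-binding protein gene, at 0.986. Next for Yp1 came CR45601 (0.974), Nsun2 (0.967) and alpha-Est7 (0.965). For Yp2 they were CG9799 (0.976), CR45601 (0.974) and CG32732 (0.970), and for Yp3 they were CG10576 (0.980), eas (0.979) and hpRNA:CR32207 (0.976). Correlation ignores the size of the change, and these genes other than Obp99a and CR45601 spanned far smaller ranges, eas only 153 to 212 CPM. By the root mean square difference of centred log2 CPM, the nearest to Yp1 were Yp2 (0.97), CR45601 (1.85), Yp3 (2.07) and whe (2.87). For Yp2 they were Yp1 (0.97), CR45601 (1.09), Yp3 (1.40) and Obp99a (2.18), and for Yp3 CR45601 (0.90), Obp99a (1.04), Yp2 (1.40) and CR45046 (1.88).

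CR45601, inside Yp1 on the other strand, was at 6.85, 5.74 and 5.05 CPM in wild-type females and at 51.4, 32.9 and 40.3 CPM in null females. Its log2 change in females was 2.81 (SE 0.20, edgeR adjusted p 6.38e-06). Its counts were 0.615% to 0.821% of those of Yp1 in the 6 female libraries. Male libraries had at most 0.247 CPM, and there the share ran from 0% to 21.4% on few counts. The library kit keeps strand, but the strand setting of the counting is not given in the sources used here, so reads of CR45601 cannot be told apart from reads of Yp1.

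Other than Yp1 and Yp2 themselves, no protein-coding neighbour of the 3 genes changed by a like amount. Next to Yp1, CG15312 fell in the null in females (-0.66, SE 0.10, edgeR adjusted p 0.00104) and in males (-0.54, SE 0.10, edgeR adjusted p 0.00608). Next to Yp2, Cht6, a chitinase gene, had a female log2 change of 0.05 (edgeR adjusted p 0.65). Beside Yp3, the changes in females were 0.26 for Rtc1 (edgeR adjusted p 0.102) and -0.21 for rdgB (edgeR adjusted p 0.202). Rtc1 was lower in null males than in null females (-0.73, SE 0.12, edgeR adjusted p 0.00345). In wild type its value for males against females was -0.40 (SE 0.12, edgeR adjusted p 0.0983). These Rtc1 values had the direction of those of Yp3 at a smaller size.

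Genes known to set the sex-specific output of yolk proteins were examined next. Of the 7 genes of the sex determination hierarchy, Sxl and tra2 rose in null females and none fell, a share near that over all genes, of which 31.8% were called and 18.2% called higher. Sxl, the switch gene of female development, was at 348, 302 and 337 CPM in wild-type and 427, 573 and 548 CPM in null females, a log2 change of 0.65 (SE 0.11, edgeR adjusted p 0.00152). The call of tra2, a cofactor of tra splicing control (0.28, SE 0.08, edgeR adjusted p 0.0208), was lost with scaling by total counts (0.16), in females fitted alone (0.27) and on leaving out null female library 1 (0.22) or wild-type female library 2 (0.24) or 3 (0.29). The other 5, tra, dsx, fru, her and ix, lay between -0.17 and 0.17 with adjusted p of 0.288 or more.

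The dsx gene itself, whose products act on the yolk protein enhancers, was at 45.6, 40.2 and 44.0 CPM in wild-type and 43.6, 54.2 and 47.7 CPM in null females, a log2 change of 0.17 (SE 0.12, edgeR adjusted p 0.301). In males it was at 34.9 to 41.5 CPM in wild type and 36.9 to 49.1 CPM in the null. Within each sex the genotypes overlapped for dsx, and within each genotype the sexes overlapped. Males against females gave a dsx change of -0.14 in wild type (edgeR adjusted p 0.581) and -0.19 in the null (edgeR adjusted p 0.228). Wild-type males lay below null females without overlap, but these groups differ in both sex and genotype. These are counts per gene, so the female and male splice forms of Sxl, tra and dsx were not analysed here. In males the 7 genes lay between -0.26 and 0.13 with adjusted p of 0.177 or more. Sxl was lower in males than in females in wild type (-0.51, SE 0.11, edgeR adjusted p 0.0251) and in the null (-1.19, SE 0.11, edgeR adjusted p 1.92e-04). The wild-type call was lost with scaling by total counts and on leaving out wild-type female library 1 or 3 or any 1 wild-type male library, at -0.47 to -0.55. In the null tra2 was also lower in males.

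Among 10 genes of ecdysone and juvenile hormone signalling, 1 rose and 1 fell in null females, which is not above the 31.8% called over all genes. The one that fell was Eip74EF, an early ecdysone response factor (-0.51, edgeR adjusted p 0.0104). The one that rose was Hr38, a nuclear receptor gene (1.13, SE 0.36, edgeR adjusted p 0.0333), and its call was lost on leaving out null female library 1 or 2 or any wild-type female library, at 0.93 to 1.22. The other 8, which include the ecdysone receptor EcR and the juvenile hormone receptors Met and gce, lay between -0.35 and 0.22. In null males 1 of the 10, Kr-h1, was called (0.54, SE 0.15, edgeR adjusted p 0.0429), against 9.93% of all genes. EcR (0.56, edgeR adjusted p 0.0296) and Kr-h1 (0.44, edgeR adjusted p 0.0463) were called higher in null males than in null females. In that contrast 29.1% of all genes were called. The 4 tested of 5 fat body transcription factors, srp, Aef1, CrebA and foxo, lay between -0.12 and 0.20 in females, with adjusted p of 0.296 or more.

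On the side of uptake, the yolk receptor gene yl was at most 0.535 CPM in any library and was not tested. Its chaperone boca, needed for the receptor to reach the cell surface, was at 24.7, 19.1 and 20.6 CPM in wild-type and 45.9, 29.9 and 29.6 CPM in null females (0.71, SE 0.16, edgeR adjusted p 0.00718). Of the 7 tested genes of uptake and lipoproteins, 4 rose in null females and none fell, against 18.2% of all genes called higher. They included apolpp, the precursor of the main lipid carrier of the haemolymph, and Mtp, which loads lipid onto it.

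Apolpp RNA was at 2030, 927 and 965 CPM in wild-type and 7210, 5910 and 5600 CPM in null females, a log2 change of apolpp of 2.26 (SE 0.41, edgeR adjusted p 0.00236). In males apolpp was at 1010 to 2450 CPM in wild type and 1970 to 4860 CPM in the null, groups that overlapped (0.81, SE 0.39, edgeR adjusted p 0.242). The change of Mtp was 0.97 in females (SE 0.12, edgeR adjusted p 1.98e-04) and 0.61 in males (SE 0.12, edgeR adjusted p 0.00656). The fourth gene, mgl (0.30, edgeR adjusted p 0.0299), lost its call with scaling by total counts (0.19), in females alone (0.29), and on leaving out null female library 1 or any 1 wild-type female library (0.25 to 0.34). LpR1, LpR2 and Apoltp lay between -0.18 and 0.09.

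Yolk proteins are kin of lipases, and 17 of 28 lipase relatives were tested. In null females 7 of them rose and 2 fell, with a median log2 change of 0.46, where 18.2% of all genes were called higher and 31.8% called in all. Lip2 (2.19, SE 0.38, edgeR adjusted p 0.00193) and CG5966 (2.08, SE 0.31, edgeR adjusted p 8.42e-04) had the highest values. Lip2 was scarce, at 0.252 to 0.413 CPM in wild-type and 1.24 to 2.10 CPM in null females, whereas CG5966 was at 127 to 133 and 295 to 742 CPM. In males 3 rose and 1 fell, against 9.93% of all genes called, with Lip2 at 1.93 (SE 0.37, edgeR adjusted p 0.00677, and 2.53 without wild-type male library 2).

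Most listed genes with sex-biased expression in the head fat body rose in null females. Of 6 such genes, 5 rose in null females and none fell, against 18.2% of all genes called higher, with a median log2 change of 1.27. The 5 were fit, Obp99b, sxe2, to and Obp99a, and Cyp4d21 was not called (-0.25, SE 0.38, edgeR adjusted p 0.637). The list mixes both biases. Cyp4d21 and sxe2 were called higher in males in both genotypes, and Obp99a was called lower in males in both. In wild type the Cyp4d21 value was 1.54 (SE 0.38, edgeR adjusted p 0.0489), close to the threshold. The wild-type call of Obp99a (-2.39, SE 0.54, edgeR adjusted p 0.0338) was lost in 6 of 18 alternatives. Its values over all of these were -2.76 to -1.55. Obp99a was at 7.47, 2.93 and 1.56 CPM in wild-type and 73.0, 38.8 and 37.2 CPM in null females (3.61, SE 0.43, edgeR adjusted p 1.75e-04, and 4.46 without wild-type female library 1). In males Obp99a stayed within 0.587 to 0.927 CPM in both genotypes. Like the yolk protein genes it was higher in females in all libraries and higher still in null females, and the female effect exceeded the male one by 3.62 (SE 0.82, edgeR adjusted p 0.371).

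The gene fit, a female-biased satiety factor, behaved differently in males. In females fit was at 7.67, 0.886 and 0.799 CPM in wild type and 343, 104 and 131 CPM in the null, a log2 change of 5.90 (SE 0.84, edgeR adjusted p 5.66e-04) that was 7.83 without wild-type female library 1 and 5.17 without null female library 1. In males fit was at 0.110, 0.340 and 0.135 CPM in wild type and 10.3, 1.74 and 5.39 CPM in the null, also without overlap. The male change of fit was 4.82 (SE 1.22, edgeR adjusted p 0.0277), and its call was lost without wild-type male library 1, 2 or 3 or null male library 1 or 3, at 4.12 to 5.51. So fit had the same direction in both sexes, whereas Yp1 and Yp2 had fitted male values below 0 that were not called. The male value of Yp3 was above 0 (0.38) and was not called either. The null effect on fit in females exceeded that in males by 1.07 (SE 1.97, edgeR adjusted p 0.795). Of the 6 listed genes, fit and Obp99b were called higher in null males and none lower, against 4.89% of all genes called higher.

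General fat body genes were mixed. Of 12, 5 rose in null females (Lsp2, Fbp2, Tsf1, Adh and FASN1) and Lsp1gamma fell, where 31.8% of all genes were called and 18.2% called higher, and the median log2 change was 0.46. Lsp2, a larval serum protein, was at 80.3 to 101 CPM in wild-type and 344 to 1110 CPM in null females (2.99, SE 0.34, edgeR adjusted p 1.53e-04). In males Lsp2 also rose (1.78, SE 0.33, edgeR adjusted p 0.00546), as did Tsf1, Adh and FASN1. These were 4 of the 12 genes, with none called lower, where 9.93% of all genes were called in males and 4.89% called higher. The summed level of the 12 genes was 3280 to 4030 CPM in wild-type and 5170 to 6880 CPM in null females, and 2880 to 3180 and 3760 to 4560 CPM in wild-type and null males. The part of this summed fat body level in the yolk protein result was not tested.

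**Figure D4:**
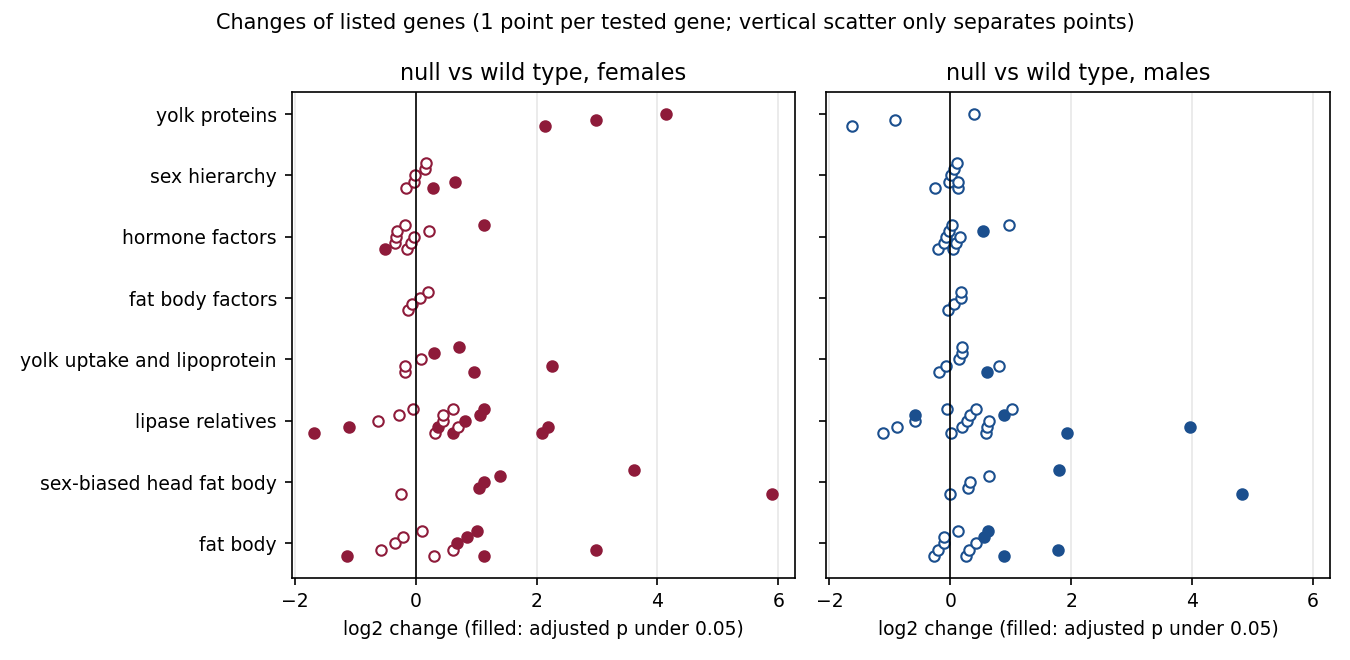
Log2 changes of every tested gene of 8 lists for null against wild type in females and in males, 1 point per gene, filled where the adjusted p is under 0.05. The yolk protein genes are at 2.13 to 4.15 in females and at -1.62 to 0.38 in males, while most genes of the sex hierarchy, hormone and fat body factor lists lie near 0.

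**Figure D5:**
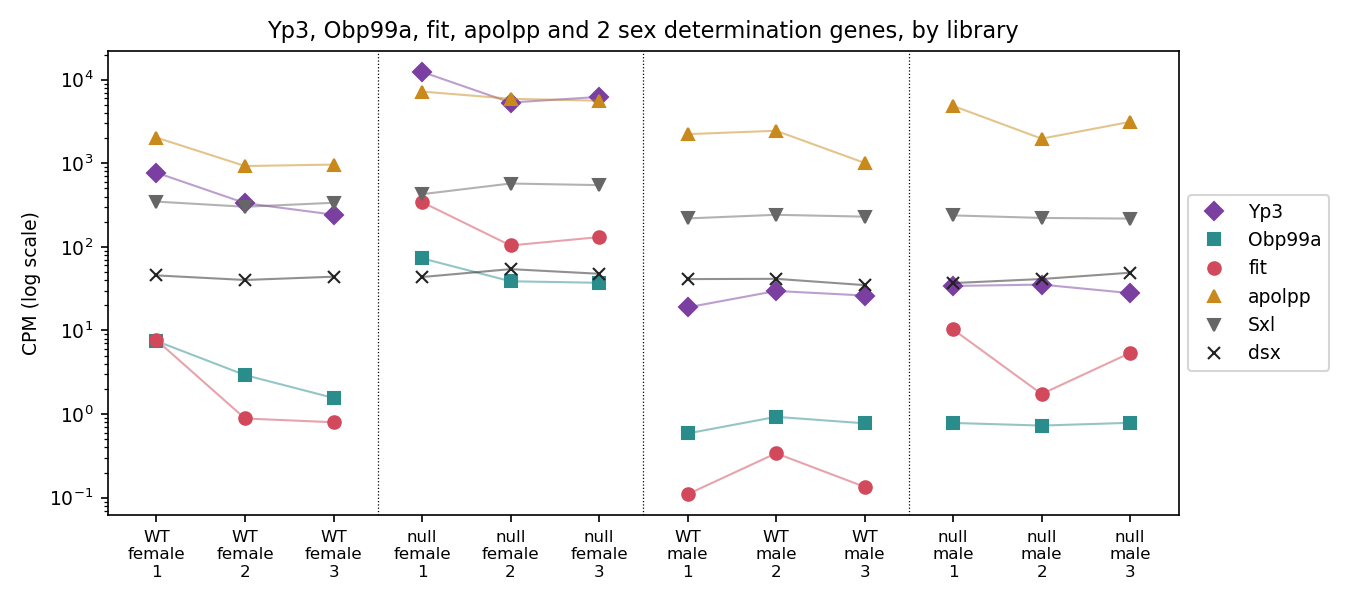
CPM (log scale) of Yp3, Obp99a, fit, apolpp, Sxl and dsx in each of the 12 libraries, with lines joining libraries of 1 group only to guide the eye. Yp3 and Obp99a are high in null females and flat across males, fit is raised in null libraries of both sexes, and dsx stays between 34.9 and 54.2 CPM.

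Markers of other tissues were checked beside these results. Of 20 ovarian follicle cell genes, mostly eggshell proteins, 19 were under 1 CPM in every library and 4 were at 0 throughout. Their summed level was 5.33 to 9.94 CPM in wild-type females, 3.86 to 5.24 in null females, 5.21 to 7.32 in wild-type males and 2.82 to 4.49 in null males, so it was lower in null than in wild-type females, unlike Yp1, Yp2 and Yp3, while its middle value was higher in females than in males within each genotype (9 against 5.44 CPM in wild type and 4.1 against 2.9 CPM in the null). Most of this sum was yellow-g, the only gene on the list to reach 1 CPM. It was at 4.37 to 8.52 CPM in wild-type and 2.99 to 4.12 CPM in null females. In males yellow-g was at 3.97 to 6.14 CPM in wild type and 1.62 to 3.64 CPM in the null, so the sum mainly shows 1 gene. The part of follicle cells in the yolk protein values was not tested. Of 7 female germ line genes 5 were under 1 CPM in every library, with sums of 27.6 to 34.9 CPM in wild-type and 25.5 to 36.9 CPM in null females. Midgut genes summed to 179 to 192 CPM in wild-type and 335 to 444 CPM in null females, and to 182 to 213 and 275 to 416 CPM in wild-type and null males. Most of the midgut sum was LManII (1.10 in females, SE 0.14, edgeR adjusted p 2.92e-04, and 0.88 in males, SE 0.14, edgeR adjusted p 0.00226), with 6 of the 10 genes under 1 CPM in every library. Male reproductive tract genes summed to 10.7 to 29.2 CPM in wild-type males and 2.24 to 6.60 CPM in null males. They were thus lower in null males, as were the fitted Yp1 and Yp2 values, which edgeR did not call. Of the 22 genes on that list, 16 were under 1 CPM in every library. The part of the midgut and male tract levels in the yolk protein values was not tested.

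In the authors' deposited table, whose log2 fold changes are shrunken towards 0, the null female changes were 2.09 for Yp1, 1.67 for Yp2 and 2.97 for Yp3, with adjusted p of 1.40e-10, 8.55e-08 and 1.23e-21 from DESeq2. For males the authors' deposited table gave -0.06, -0.28 and 0.11, with adjusted p from 0.669 to 0.954. For females over males the authors' deposited table gave 2.42, 3.80 and 1.91 in wild type and 4.58, 5.75 and 4.77 in the null. The direction of each called value is that of the fits above, and in the shrunken sex comparisons Yp2 took the first place that Yp1 held in the unshrunken fits.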

How the data were processed

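Raw counts per gene were made by the authors with featureCounts 1.6.0.3 after alignment with STAR 2.5.2b-0 to BDGP6, per the submitters' processing notes. The annotation release and strand setting are not given in the sources used here. The authors' deposited comparison table, made with DESeq2 2.11.40.1 per those notes, holds a shrunken log2 fold change, its standard error (treated as a score) and an adjusted p-value per gene.

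Members and gene lists were chosen with earlier results of these data known. Genes passing filterByExpr (11223) were scaled by TMM and fitted as 4 group means over 12 libraries with edgeR 4.0.16 in R 4.3.3, with quasi-likelihood tests and Benjamini-Hochberg adjustment over all genes within each of 5 contrasts. Calls were made at an adjusted p under 0.05. The SE was derived from the test, as the size of the log2 change over the root of its F statistic. CPM use TMM-scaled library sizes. Ratios between members used counts per kb of exon. The ratios given for single libraries have no count added. The log2 ratios of groups and their exact permutation tests (SciPy 1.17.1) used 1 count added to each gene.

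The genes named were Yp1 to Yp3, the sex hierarchy, uptake and roX genes, up to 3 called genes of each other list by size of change, overlapping and adjacent genes, and the 4 of most like pattern by each measure. Eip74EF, Lsp1gamma and genes given by name alone were chosen after their values were seen. Alternatives were RLE or total-count scaling, no filter, DESeq2 1.42.0 with unmoderated changes, the compared groups alone, a replicate block and leaving out each library. The model was tested on simulated counts. Sequences and promoter motifs were not analysed here.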

Additional observations from a re-analysis of the deposited data

How the results depend on the processing

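Over the 5 contrasts, Yp1, Yp2 and Yp3 kept their direction in all 267 alternatives and their side of the threshold in 257, and the 3 ratios between them did so in 42 of 42. Calls were gained with DESeq2 for Yp1 in males (-1.60) and for the difference between the sexes (4.55 for Yp1, 3.01 for Yp2, 3.73 for Yp3), with no filter on low counts for the Yp3 difference (3.76), without wild-type male library 1 for Yp1 and Yp2 and without wild-type female library 1 for Yp3. The cause was not tested. Leaving out 1 library gave -2.11 to -1.10 (Yp1) and -1.29 to -0.53 (Yp2) in males, and differences of 4.08 to 5.09 (Yp1), 2.67 to 3.42 (Yp2) and 3.28 to 4.41 (Yp3). In females it gave 2.69 to 3.21, 1.90 to 2.31 and 3.67 to 4.79. Genes called ranged from 2068 to 4058 in females, 624 to 1852 in males, 0 to 28 for the difference, 149 to 848 between wild-type sexes and 571 to 3866 between null sexes.

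Replicate numbers were not taken to pair the libraries, since the labels do not say that they do. Correlations of same-numbered deviations ran from -0.191 to 0.310 over 18 pairs, with 8 over 0.1, and do not decide this. Among these, all 6 pairs of replicate 1 were at 0.187 to 0.272. With the replicate block the female changes were 2.99, 2.13 and 4.20 for Yp1, Yp2 and Yp3, no call of a member changed, and 4058 genes were called in females, 1395 in males and 0 for the difference. Depth limits Yp1 in males, which rests on as few as 28 counts.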
